A study of Mus musculus with 21 samples.

Results

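The genes described here are the subunits of the mitochondrial respiratory chain and of the ATP synthase, followed through 21 RNA sequencing libraries of mouse macrophages. They were chosen by name and by a limit on their level, with earlier results of these data known. Every row of the count table whose symbol begins with Ndufa, Ndufb, Ndufc, Ndufs, Ndufv, Uqcr, Cox4 to Cox8, Atp5, mt-Nd, mt-Co, mt-Cy or mt-Atp was taken, pseudogenes were left out, and a mean of at least 1 CPM (counts relative to a common library total, scaled as described under processing) in at least 1 group was required. Of 47069 rows, 106 met the names, 8 stayed under the limit and 98 were members. All 98 were among the 15581 genes tested. Cox4i2 lay just outside the limit at 0.983 CPM, and Ndufb4c, at 1.26, 1.66 and 1.599 CPM in untreated cells, just inside it. The nuclear genome encodes 85 members, which are 38 genes named as subunits of complex I, 8 complex I assembly factors (Ndufaf1 and the like, which share the prefix), 8 genes of complex III, 14 of complex IV and 17 of the ATP synthase. These classes follow the name prefix, so Ndufa4, known as a subunit of complex IV, is counted with complex I throughout. The other 13 are encoded by mitochondrial DNA, and they are reported apart.

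The cells were bone-marrow-derived macrophages, grown with the growth factor M-CSF from the marrow of wild-type C57BL/6 mice aged 8 to 10 weeks. Untreated cells were taken at 0 h (Ctrl_0h). Other cells received TNF (tumour necrosis factor) for 6 h or 24 h (TNF_6h, TNF_24h), interleukin 4 with interleukin 13 (IL_6h, IL_24h), or all of these cytokines together (IL_TNF_6h, IL_TNF_24h), at 10 ng/ml. Each of the 7 groups held 3 libraries. No untreated cells were sampled at 6 h or 24 h, so a difference from Ctrl_0h includes any effect of culture time. Whether the 3 libraries of a group are separate mice or cultures is not stated in the labels.

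The respiratory chain passes electrons from NADH and succinate to oxygen and pumps protons across the inner mitochondrial membrane. The ATP synthase lets them flow back and makes ATP. Complexes I, III and IV and the ATP synthase are built from subunits of both genomes, whereas complex II is wholly nuclear. Mitochondrial DNA is transcribed into long polycistronic RNAs that are cut into the single messages. In macrophages, inflammatory stimuli are known to turn metabolism towards glycolysis, and interleukin 4 is known to favour oxidative phosphorylation.

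Promoters are shown first, because many nuclear respiratory genes are known targets of the factors NRF1, GABPA (an ETS factor) and YY1. RefSeq windows from 250 bases before to 50 bases after the annotated start (GRCm38.p6) were found for 71 of the 85 nuclear members, 76 windows in all. The NRF1 letters GCGCATGC, searched on both strands, stood in 11 of the 76 windows (14.5%) and in 2.71% of all 32851 windows. The ETS letters CCGGAAG stood in 17 windows (22.4%, against 8.86% of all), and the YY1 letters AAGATGGCG in 8 (10.5%, against 1.40%). At least 1 of the 3 motifs was found in 39.5% of member windows and in 12.1% of all windows, and no base was shared by matches of different motifs. The windows of 4 members are printed below 5′ to 3′ on the strand of the gene, with motif matches in capitals: Atp5k and Atp5j2, the ATP synthase genes with the largest interaction at 24 h, Ndufaf4, the one of the 8 Ndufaf genes with the largest rise at 6 h of TNF, and Cox7a1, the nuclear member with the largest fall under TNF at 6 h. They were chosen after their values were seen. Atp5k lies at chr5:108434350-108434649 (minus strand), Atp5j2 at chr5:145191492-145191791 (minus), Ndufaf4 at chr4:24897833-24898132 (plus) and Cox7a1 at chr7:30183921-30184220 (plus).
Atp5k: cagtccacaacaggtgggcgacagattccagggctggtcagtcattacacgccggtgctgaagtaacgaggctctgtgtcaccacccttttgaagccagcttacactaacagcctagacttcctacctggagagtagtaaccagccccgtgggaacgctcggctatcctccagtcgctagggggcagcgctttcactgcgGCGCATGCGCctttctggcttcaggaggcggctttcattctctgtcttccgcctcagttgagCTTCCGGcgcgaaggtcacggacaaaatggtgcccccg
Atp5j2: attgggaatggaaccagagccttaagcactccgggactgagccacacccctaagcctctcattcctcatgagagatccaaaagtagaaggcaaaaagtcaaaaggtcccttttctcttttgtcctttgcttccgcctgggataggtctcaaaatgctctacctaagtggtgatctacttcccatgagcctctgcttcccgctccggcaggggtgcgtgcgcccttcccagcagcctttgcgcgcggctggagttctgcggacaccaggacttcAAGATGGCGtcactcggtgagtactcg
Ndufaf4: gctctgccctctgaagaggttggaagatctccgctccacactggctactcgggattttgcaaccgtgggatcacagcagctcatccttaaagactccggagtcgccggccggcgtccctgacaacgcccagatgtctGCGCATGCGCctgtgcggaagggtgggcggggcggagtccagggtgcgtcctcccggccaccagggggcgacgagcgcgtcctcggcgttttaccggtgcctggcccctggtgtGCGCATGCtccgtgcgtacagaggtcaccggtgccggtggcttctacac
Cox7a1: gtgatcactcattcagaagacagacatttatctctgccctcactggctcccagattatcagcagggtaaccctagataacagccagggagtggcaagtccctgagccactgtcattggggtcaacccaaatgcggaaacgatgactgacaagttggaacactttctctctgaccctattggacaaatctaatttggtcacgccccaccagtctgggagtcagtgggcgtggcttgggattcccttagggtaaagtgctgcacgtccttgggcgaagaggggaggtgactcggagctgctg
In Atp5k, NRF1 matches on the 2 strands began 50 and 48 bases before the start and overlapped, and an ETS match began 12 bases after it. Atp5j2 held a YY1 match that began 23 bases after the start. Ndufaf4 held overlapping NRF1 matches 113 and 111 bases before the start and another 1 base after it. The Cox7a1 window held none of these letters. Such a match is a description of the sequence and not a measured binding site.

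Libraries held between 28063252 and 48654300 counts. They fell into 3 sets by genes that mark the sex of the source and by gene length, here the joint length of a gene's annotated exons. In the 9 libraries of Ctrl_0h, TNF_6h and TNF_24h, Xist, which silences an X chromosome in female cells, stood at 162 to 283 CPM, and genes under 1000 bases other than members held 5.60% to 9.15% of the counts. The 6 libraries of IL_6h and IL_TNF_6h had Xist at 562 to 1014 CPM and 3.46% to 4.21% of their counts in such short genes. The 6 of IL_24h and IL_TNF_24h had Xist at 0 to 0.145 CPM, the Y-linked Ddx3y at 41.8 to 50.9 CPM, and 3.68% to 4.42% in short genes. Comparisons of TNF with Ctrl_0h, and of IL_TNF with IL at one time, stay inside a set. Comparisons of IL with Ctrl_0h cross sets, where treatment and set cannot be told apart. Ctrl_0h replicate 2 stood apart, with 27761 genes counted against 16996 to 20631 in the other libraries. IL_6h replicate 2 and IL_TNF_6h replicate 3 stood apart from their groups, with summed fibroblast markers of 8.75 and 7.34 CPM against 0.0862 to 0.398 in the other 4 libraries of these groups (Lum, one of the 6 markers, was at 0 in all libraries), and with 3.40 and 3.07 times as many counts in mitochondrial as in nuclear members, against 1.68 to 2.03. All 8 macrophage markers reached 1 CPM, with a summed level of 11654 to 42071 CPM. Summed neutrophil markers reached at most 3.92 CPM, fibroblast markers 8.75, T and NK cell markers 1.32, B cell markers 9.23, erythroid markers 1.49 and dendritic cell markers 28.4 CPM, the last in IL_TNF_24h.

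In untreated cells the 4 members with the most counts per length of annotated exon were mitochondrial messages. That length joins all annotated exons of a gene and can exceed the length of a single transcript, which lowers the value of such a gene. On the scale of CPM per 1000 bases of exon, mt-Co2 stood at 5043, mt-Atp6 at 2219, mt-Co1 at 2210 and mt-Co3 at 2014. The most abundant nuclear members on that scale were the complex IV subunits Cox6a1 at 1131 and Cox4i1 at 947. Counts of mitochondrial genes spanned a wide range on that scale, down to mt-Atp8 at 39.3 and mt-Nd4l at 39.1, ranks 74 and 75 of the 98 members. These 2 genes, of 204 and 297 bases, overlap or adjoin mt-Atp6 and mt-Nd4. Their values may therefore not be message levels, and the part of the counting in them was not tested. At the low end stood Ndufb2 (5628 bases of annotated exon) at 1.00, Ndufaf4 at 2.00 and the muscle-type subunit Cox6a2 at 2.06. The 85 nuclear members together took 1.16% to 1.47% of the counts of Ctrl_0h, and the 13 mitochondrial members took 1.16% to 1.48%.

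After 6 h of TNF the mitochondrially encoded messages were lower, and by 24 h they were back near the untreated level. Their summed share of the counts was 1.36% ± 0.175 (SD, n = 3) in Ctrl_0h, 0.644% ± 0.068 in TNF_6h and 1.38% to 1.63% in the TNF_24h libraries, so that TNF_6h overlapped neither of the other groups. At 6 h, 10 of 13 fell and 0 rose in edgeR's quasi-likelihood test (adjusted p below the threshold of 0.05), and all 13 estimates were negative, with a median log2 fold change of −1.26. Over all genes tested, 20.5% were lowered and 18.8% raised in this comparison, with a median of −0.04.

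**Figure D1:**
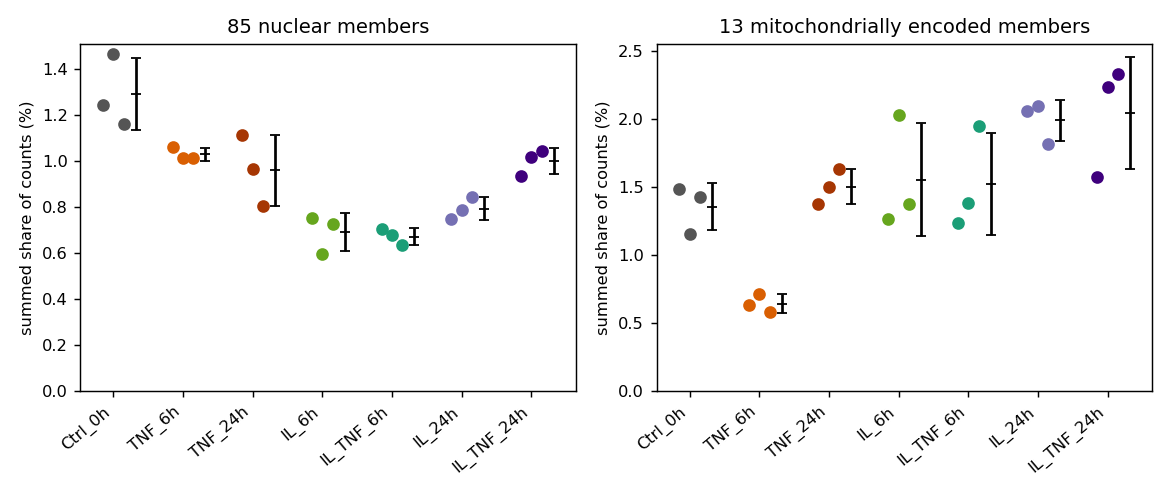
Percent of each library's counts held by the 85 nuclear members and by the 13 mitochondrially encoded members, 1 point per library, with a bar for the mean and the SD of each group. The mitochondrial share of the 3 TNF_6h libraries (mean 0.644%) lies below every other group, and the nuclear share of the libraries with IL lies below that of Ctrl_0h.

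Among mitochondrial genes of complex I, mt-Nd3, at 262, 273 and 237 CPM in Ctrl_0h, stood at 61.8, 63.3 and 63.3 CPM in TNF_6h and at 267, 244 and 191 CPM in TNF_24h. The groups at 0 h and 6 h did not overlap, and the change was −2.04 ± 0.29 on the log2 scale (± SE, adjusted p = 1.65e-05). mt-Nd1 fell by 1.26 and mt-Nd2 by 1.03. mt-Cytb, the cytochrome b of complex III, was counted at 1087, 577 and 1040 CPM in Ctrl_0h and at 329, 356 and 296 CPM in TNF_6h, a change of −1.46 ± 0.20 (adjusted p = 7.74e-06). Its lowest untreated library was replicate 2, which still stood above all 3 treated ones. mt-Co2, the subunit of complex IV that takes electrons from cytochrome c, had 3583, 3340 and 3425 CPM at 0 h and 1578, 1508 and 1220 CPM at 6 h (−1.27 ± 0.14, adjusted p = 5.91e-07). mt-Co3 and the ATP synthase subunit mt-Atp6 fell by 1.26 and 1.36.

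The fall was not equal across the mitochondrial messages. mt-Co1, the catalytic subunit of complex IV, stood at 4063, 2364 and 3817 CPM in Ctrl_0h and at 3186, 3543 and 2694 CPM in TNF_6h, overlapping ranges with a difference of −0.12 ± 0.19 (adjusted p = 0.644). The overlap came from Ctrl_0h replicate 2 alone, and the other untreated libraries stood above all 3 treated ones. mt-Nd4l (−0.49, adjusted p = 0.441) and mt-Atp8 (−1.31, adjusted p = 0.204) did not pass the test either, at low levels of 4.50 to 16.3 and 5.44 to 9.62 CPM in Ctrl_0h. The ratio of mt-Co1 to mt-Co2 was 0.708 to 1.13 in Ctrl_0h, 2.02 to 2.35 in TNF_6h, 1.12 to 1.81 in TNF_24h and 2.999 to 3.49 in all libraries with IL. ATP8 and ATP6, ND4L and ND4, and ND5 and ND6 (on opposite strands) overlap or adjoin on mitochondrial DNA. How reads that span such a pair were counted is not given in the sources used here. The strand setting, which bears on the pair on opposite strands, is not given either. With 1 library left out at a time, the call of mt-Nd6 (−0.96) was lost in each of the 6 fits (−1.07 to −0.86), and that of mt-Nd4 (−0.91) without replicate 1 or 3 of Ctrl_0h or of TNF_6h (−1.19 to −0.72 over the 6 fits). For the other 8 lowered genes the call held in each of those fits.

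The mitochondrial ribosomal RNA mt-Rnr1 did not move with the messages. It stood at 91.3, 0.981 and 88.4 CPM in Ctrl_0h, at 555, 543 and 512 CPM in TNF_6h, and at 91.2, 2.21 and 1.75 CPM in TNF_24h, so among these groups it was highest in TNF_6h, where the messages were lowest, and near 0 in 1 untreated and 2 treated libraries. Genes under 1000 bases other than members held 7.08% to 9.15% of the counts in Ctrl_0h and 8.19% to 8.87% in TNF_6h, overlapping ranges. The part of the ribosomal RNA content in the result was not tested. In bulk RNA, fewer mitochondria and less RNA per mitochondrion cannot be told apart.

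Between 6 h and 24 h of TNF, 12 of the 13 mitochondrial members rose and 0 fell, against 12.7% raised and 10.9% lowered over all genes, with a median change of 1.52. Among the 12 called, the largest estimates were those of mt-Cytb (1.96 ± 0.20, adjusted p = 1.15e-06), mt-Nd4l (1.94, ending at an adjusted p of 0.0845 and an estimate of 1.17 without TNF_24h replicate 3) and mt-Nd3 (1.90). This comparison shares the TNF_6h libraries with the one above. Against Ctrl_0h at 24 h, 4 were raised, namely mt-Nd4l (1.44), mt-Nd5 (0.70), mt-Co1 (0.52) and mt-Cytb (0.49), with 20.9% of all genes raised and 24.4% lowered. That count was 0 without Ctrl_0h replicate 2, 0 without TNF_24h replicate 3 and 2 without TNF_24h replicate 2.

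**Figure D2:**
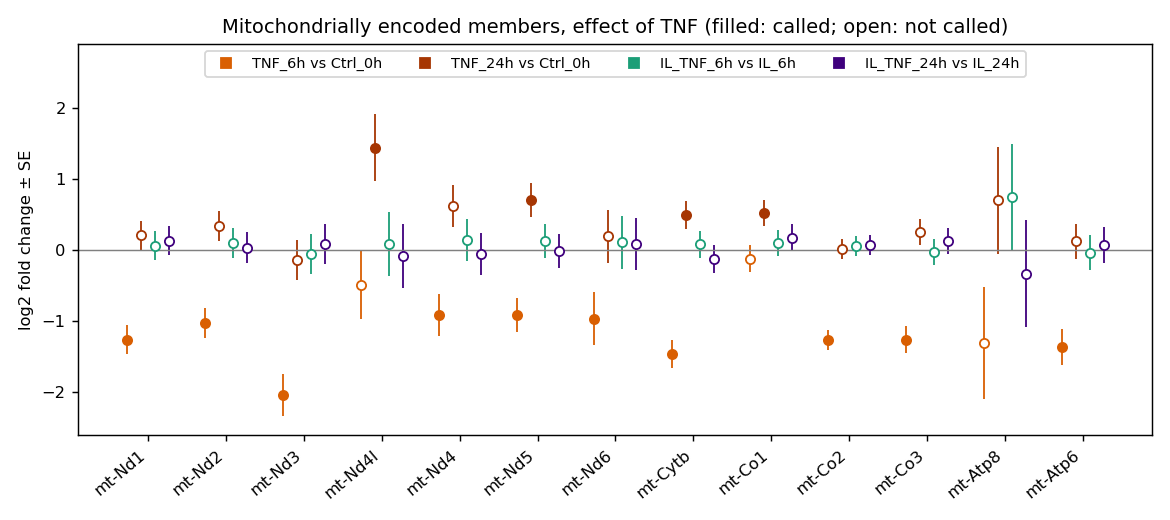
Log2 fold change ± SE of the 13 mitochondrially encoded members for TNF against Ctrl_0h at 6 h and 24 h and for TNF added to IL at 6 h and 24 h; filled points passed the test and open points did not. At 6 h without IL, 10 of 13 are filled below 0, and with IL none is filled at either time.

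The nuclear subunits were called in both directions at 6 h of TNF. Of 85, 7 rose and 12 fell, with a median log2 fold change of −0.15 (−0.03 with the trend of log2 counts over exon length removed), and their shares of raised and lowered genes were below the background of 18.8% and 20.5%. Their share of the counts was 1.16% to 1.47% in Ctrl_0h and 1.01% to 1.06% in TNF_6h. Complex I had 0 raised and 5 lowered of 38, complex III 1 and 1 of 8, complex IV 3 and 2 of 14, the ATP synthase 1 and 2 of 17, and the assembly factors 2 and 2 of 8. The count of lowered members was 5 without Ctrl_0h replicate 2, 6 without TNF_6h replicate 2 and 7 without TNF_6h replicate 3. That of raised members was 4 without TNF_6h replicate 1. The split also depended on the scaling. With library totals in place of TMM (trimmed mean of M values) the median of all genes moved to −0.25, 12.3% of all genes were raised and 29.7% lowered, and 1 nuclear member was raised and 37 lowered. With upper-quartile scaling the median of all genes was −0.15, 15.8% were raised and 24.7% lowered, and 19 nuclear members were lowered.

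In complex I the largest fall was that of Ndufv3, a small subunit beside the NADH-binding flavoprotein. It stood at 124, 155 and 113 CPM in Ctrl_0h and at 79.0, 64.3 and 65.7 CPM in TNF_6h, without overlap, a change of −0.91 ± 0.16 (adjusted p = 0.000202). It remained lower at 24 h, at 98.3, 76.6 and 58.7 CPM (−0.75 ± 0.16, adjusted p = 0.00107). Ndufa4, named for complex I but known as a subunit of complex IV, had 177, 208 and 165 CPM before TNF and 127, 125 and 116 CPM at 6 h (−0.58 ± 0.14, adjusted p = 0.00291). Its paralogue AA467197 (the mouse NMES1 gene, named here after its values were seen) went the other way. It stood at 1.34, 1.28 and 0.881 CPM in Ctrl_0h, at 3.79, 3.46 and 3.68 CPM in TNF_6h and at 10.4, 11.2 and 8.34 CPM in TNF_24h, changes of 1.63 and 3.09. The catalytic core subunits of complex I, Ndufs1 and Ndufv1, did not pass the test at 6 h.

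Among the assembly factors, Ndufaf7, a methyltransferase that modifies a core subunit, fell from 20.3, 17.9 and 19.3 CPM to 10.99, 11.3 and 10.5 CPM at 6 h (−0.81 ± 0.16, adjusted p = 0.000602) and stood at 12.2, 10.1 and 9.34 CPM at 24 h (−0.86, adjusted p = 0.000285). Ndufaf4, an early assembly factor, rose from 8.39, 8.35 and 6.62 CPM to 9.92, 12.7 and 12.4 CPM (0.58 ± 0.17, adjusted p = 0.0102). The 2 genes thus moved in opposite directions, and in both the groups did not overlap.

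Tissue-type isoforms of complex IV gave the largest changes of nuclear members. Cox7a1, the heart and muscle isoform (chr7:30184171-30186030 in GRCm38.p6), stood at 9.59, 11.3 and 10.9 CPM in Ctrl_0h, at 2.81, 2.57 and 2.10 CPM in TNF_6h and at 8.33, 6.83 and 5.26 CPM in TNF_24h. The change at 6 h was −2.08 ± 0.27 (adjusted p = 3.56e-06), and from 6 h to 24 h it rose again by 1.45 ± 0.26 (adjusted p = 0.000414). Its general counterpart Cox7a2 stood at 112, 126 and 104 CPM in Ctrl_0h and 119, 105 and 94.99 CPM in TNF_6h, which overlap. Cox6a2, another heart and muscle isoform (chr7:128205435-128206366), did the reverse of Cox7a1. It was counted at 1.07, 1.69 and 1.31 CPM at 0 h, at 7.04, 3.70 and 6.12 CPM at 6 h and at 1.12, 0.665 and 0.795 CPM at 24 h, a rise of 2.05 ± 0.44 (adjusted p = 0.00109) and then a fall by 2.70 ± 0.46 (adjusted p = 0.000227). The general isoform Cox6a1, at 718 to 854 CPM in Ctrl_0h and 574 to 676 CPM in TNF_6h, did not pass the test (−0.33 ± 0.26, adjusted p = 0.343). Cox6b2, the testis isoform, ranged over 1.63 to 3.79 CPM in the Ctrl_0h libraries and was lower in TNF_6h by 1.92 on the log2 scale. This call was lost without Ctrl_0h replicate 2 (−1.49, adjusted p = 0.0524), TNF_6h replicate 1 (−1.72) or TNF_6h replicate 2 (−1.69).

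**Figure D3:**
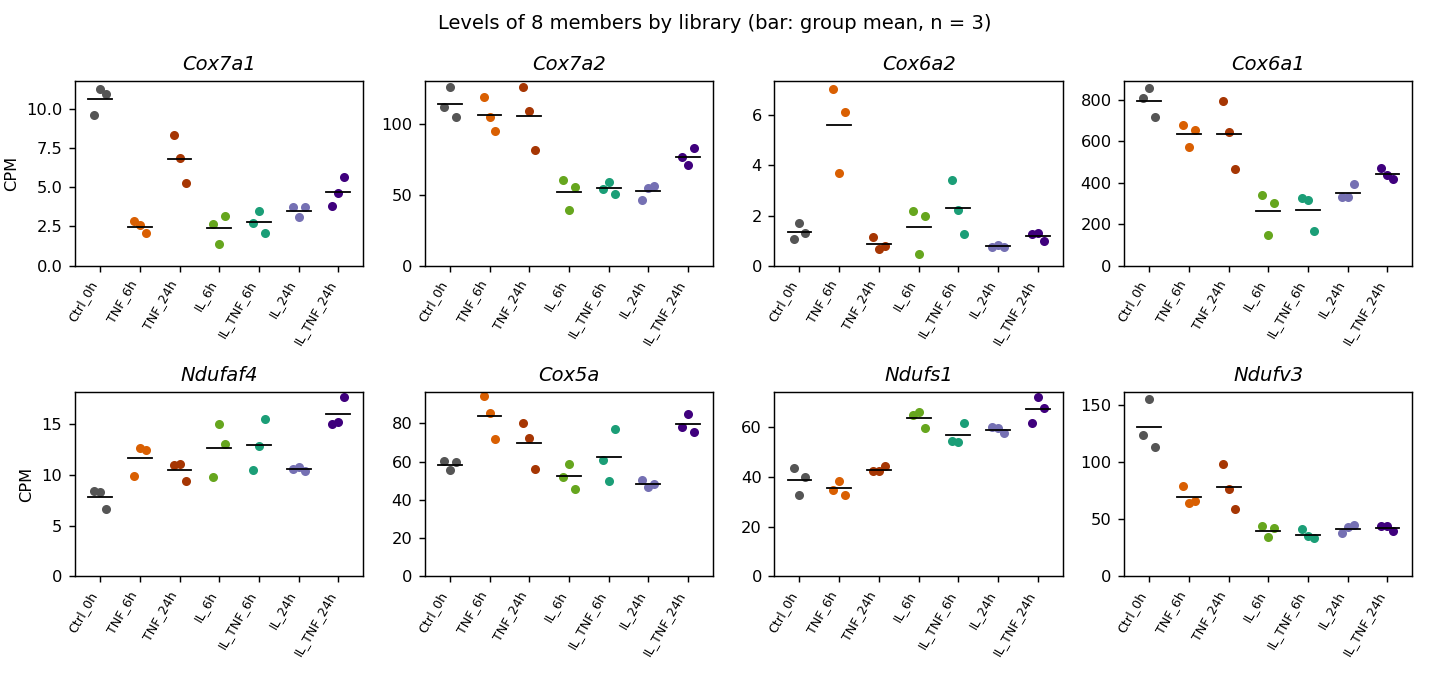
CPM of 8 members in each library by group, on linear axes that start at 0, with a bar for the mean of the 3 libraries. Cox7a1 is lower in TNF_6h (2.10 to 2.81 CPM) than in Ctrl_0h (9.59 to 11.3 CPM) while Cox7a2 overlaps, and Cox6a2 is high only in TNF_6h among the groups without IL.

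Other members of complexes III and IV rose at 6 h of TNF. Cox7a2l had 224, 234 and 216 CPM in Ctrl_0h, 328, 312 and 296 CPM in TNF_6h and 246, 215 and 174 CPM in TNF_24h, a rise of 0.48 ± 0.13 (adjusted p = 0.00666) followed by a fall by 0.56 ± 0.13 (adjusted p = 0.00323). Uqcrc2, a core protein of complex III, rose from 64.9, 49.6 and 64.0 CPM to 78.8, 78.8 and 74.9 CPM (0.38 ± 0.10, adjusted p = 0.00521). Cox5a, which with other nuclear subunits surrounds the catalytic core, rose from 60.3, 55.5 and 59.5 CPM to 94.1, 85.5 and 71.9 CPM (0.52 ± 0.15, adjusted p = 0.0103), a call lost without TNF_6h replicate 1 (0.43, adjusted p = 0.0597). In the ATP synthase, Atp5j2, a subunit of the membrane part, fell from 232, 270 and 202 CPM to 173, 146 and 134 CPM (−0.63 ± 0.17, adjusted p = 0.00716). Of the catalytic subunits, Atp5b gave 0.32, a call lost in 5 of 6 fits with 1 library left out, and Atp5a1 did not pass. The inhibitor of the ATP synthase, Atpif1, which lies outside the name prefixes, fell from 142, 172 and 125 CPM to 75.1, 76.8 and 57.0 CPM (−1.07 ± 0.18, adjusted p = 7.04e-05).

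At 24 h of TNF more nuclear subunits were lowered than raised. Of 85, 21 fell and 1 (Ndufaf4, 0.43) rose, with a median of −0.26, while 24.4% of all genes were lowered and 20.9% raised. The call of Ndufaf4 was lost without Ctrl_0h replicate 2 or 3 or without TNF_24h replicate 1 or 2 (0.33 to 0.51 over the 6 fits). With the trend over length removed the median was −0.14. The lowered members' share was close to the background, and the raised members' share below it. With upper-quartile scaling 17.2% of all genes were raised and 31.3% lowered and 44 nuclear members fell, and with library totals 16.3% and 32.3% and 56 nuclear members. By class, 13 of 38 in complex I, 2 of 8 assembly factors, 0 of 8 in complex III, 3 of 14 in complex IV and 3 of 17 in the ATP synthase fell. Ndufb10, a subunit of the membrane arm of complex I, stood at 126, 153 and 117 CPM in Ctrl_0h and at 107, 87.0 and 62.9 CPM in TNF_24h (−0.62 ± 0.17, adjusted p = 0.00544), and Atp5j2 at 195, 148 and 105 CPM (−0.65 ± 0.17, adjusted p = 0.00514).

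The 3 TNF_24h libraries differed among themselves. Nuclear members summed to 12894.5 CPM in replicate 1, 11000 in replicate 2 and 8428 in replicate 3, while genes of at least 4000 bases held 28.4%, 30.4% and 34.7% of their counts in the same order, and the part of this in the result was not tested. The count of 21 was 12 without Ctrl_0h replicate 1, 8 without Ctrl_0h replicate 2, 41 without TNF_24h replicate 1, 12 without TNF_24h replicate 2 and 4 without TNF_24h replicate 3. The raised count ran from 0 to 3 in these fits: it was 2 without Ctrl_0h replicate 1, 3 without TNF_24h replicate 3 and 0 without Ctrl_0h replicate 2, TNF_24h replicate 1 or TNF_24h replicate 2. From 6 h to 24 h, 1 nuclear member rose (Cox7a1) and 5 fell, against 12.7% and 10.9% of all genes; the 5 became 13 without TNF_24h replicate 1 and 3 without either TNF_6h replicate 1 or 2 or TNF_24h replicate 2 or 3.

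**Figure D4:**
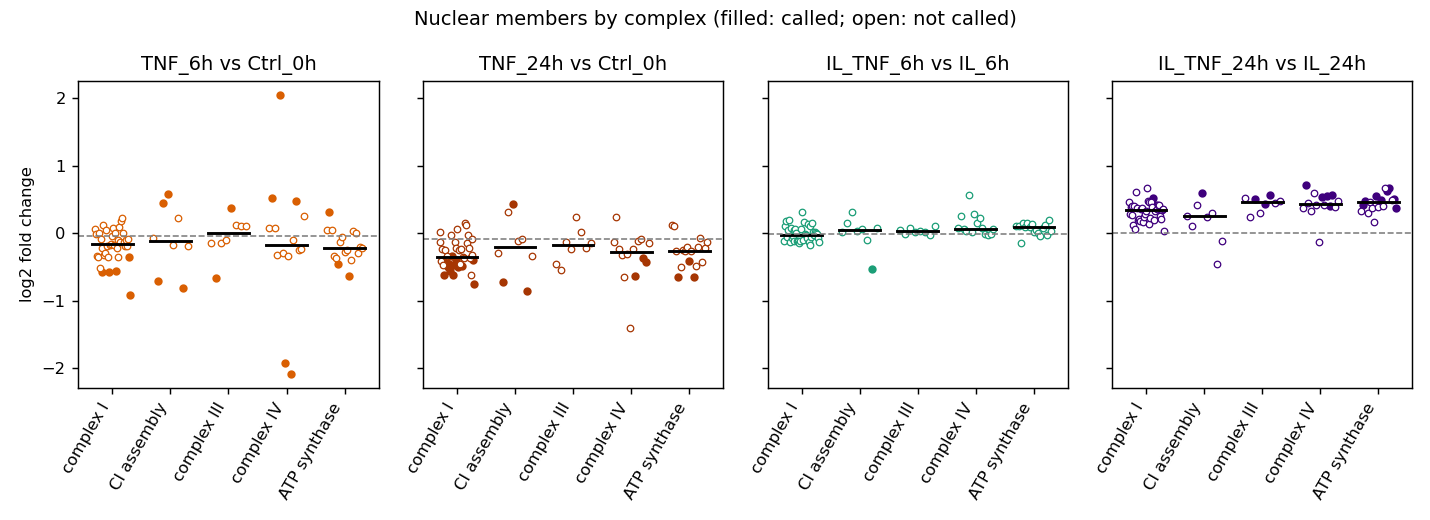
Log2 fold change of the 85 nuclear members by class for TNF against Ctrl_0h and for TNF added to IL, at 6 h and 24 h, with a black bar for the class median and a dashed line for the median of all genes tested. The class medians lie below 0 for TNF alone at 24 h and between 0.35 and 0.47 for complexes I, III and IV and the ATP synthase when TNF was added to IL for 24 h.

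When TNF was added to interleukins 4 and 13 for 6 h, few members passed the test. Of 85 nuclear members, 0 rose and 1 fell (median 0.03), and of 13 mitochondrial members 0 rose and 0 fell (median 0.08, 10 of 13 estimates positive), while 7.09% of all genes were raised and 6.98% lowered (5.94% and 9.58% with library totals). The single call was Ndufaf7, at 6.36, 5.19 and 7.61 CPM in IL_6h and 4.44, 4.18 and 4.65 CPM in IL_TNF_6h (−0.53 ± 0.17, adjusted p = 0.041). It was lost in each fit without IL_6h replicate 1 or 3 or without any 1 of the IL_TNF_6h replicates. mt-Nd3, which fell under TNF alone, stood at 58.7, 137 and 99.3 CPM in IL_6h and at 53.5, 99.96 and 130 CPM in IL_TNF_6h. mt-Cytb stood at 970, 1209 and 958 CPM and at 1013, 1026 and 1276 CPM. Both pairs of ranges overlap. The sign of the mitochondrial median rested on single libraries: it was −0.22 with 0 of 13 positive without IL_TNF_6h replicate 3, −0.09 without IL_6h replicate 1, 0.02 without IL_6h replicate 3, and 0.34 and 0.22 with 13 of 13 positive without IL_6h replicate 2 or IL_TNF_6h replicate 1. Without both libraries that hold fibroblast markers it was 0.12 with 10 of 13 positive, and the counts of calls were the same. With library totals in place of TMM it was −0.02.

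When TNF was added to the interleukins for 24 h, nuclear subunits of the ATP synthase and of complexes III and IV rose, while few of complex I passed the test. Of 85, 19 rose and 0 fell, against 6.03% raised and 5.08% lowered of all genes, and the median change was 0.39 against 0.00 over all genes. In 67 of 85 nuclear members all 3 IL_TNF_24h libraries stood above all 3 IL_24h libraries, and in 0 of 85 all stood below, whereas over all genes tested these shares were 17.5% and 18.8%. Their summed level was 7016, 7360 and 7993 CPM in IL_24h and 9596, 9745 and 9960 CPM in IL_TNF_24h. The sum of the 5 dendritic cell markers moved with it, from 3.24 CPM ± 0.775 in IL_24h to 25.6 CPM ± 2.55 in IL_TNF_24h (SD, n = 3), without overlap. Ccr7 went from a mean of 0.555 to 13.4 CPM and Zbtb46 from 2.62 to 11.97 CPM, while Siglech stood at 0 in both groups and Flt3 and Xcr1 stayed under 1 CPM on average. Their part in the result was not tested. Of the mitochondrial members 0 of 13 rose or fell, the median was 0.07, and 0 of 13 had groups without overlap.

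The ATP synthase had the most members raised, 8 of 17 (median 0.46), and all 17 estimates were positive with no overlap between the groups. Atp5l, a subunit at the dimer interface, stood at 102, 112 and 124 CPM in IL_24h and at 170, 172 and 179 CPM in IL_TNF_24h (0.63 ± 0.15, adjusted p = 0.0068). Atp5g3, a gene of the rotating c ring, rose from 160, 170 and 177 CPM to 246, 251 and 251 CPM (0.56 ± 0.12, adjusted p = 0.00456). The catalytic subunit Atp5b had 806, 829 and 869 CPM without and 1075, 1117 and 1162 CPM with TNF (0.42 ± 0.11, adjusted p = 0.0156). Its partner Atp5a1, at 704, 724 and 760 CPM and at 872, 946 and 943 CPM, did not pass (0.33, adjusted p = 0.0685), although the groups did not overlap.

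In complex III, 3 of 8 rose. Uqcrfs1, the Rieske iron-sulphur protein that passes electrons to cytochrome c1, rose from 66.7, 70.5 and 69.5 CPM to 89.0, 112 and 106 CPM (0.57 ± 0.11, adjusted p = 0.00115), and Uqcrc2 from 82.5, 88.7 and 82.3 CPM to 108, 119 and 116 CPM (0.44 ± 0.10, adjusted p = 0.00544). In complex IV, 5 of 14 rose. Cox5a went from 50.2, 46.9 and 48.3 CPM to 78.3, 85.1 and 75.4 CPM (0.72 ± 0.15, adjusted p = 0.00292), the largest change of any nuclear member called here. In complex I 2 of 38 passed, Ndufs3 (0.42) and Ndufc2 (0.52), a share near the 6.03% of all genes, and all 38 estimates were positive with a median of 0.35. With 1 library left out at a time, the call of Ndufs3 was lost in each of the 6 fits (0.37 to 0.46), and that of Ndufc2 in all but the fit without IL_24h replicate 3 (0.43 to 0.66 over the 6). Ndufa4 did not pass, at 76.8, 78.0 and 70.9 CPM against 80.1, 79.7 and 76.4 CPM (0.07 ± 0.14, adjusted p = 0.902). Its paralogue AA467197 rose from 3.66, 4.64 and 4.99 CPM to 33.3, 48.6 and 53.1 CPM (3.35 ± 0.23, adjusted p = 5.84e-09). 

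The number of nuclear members called depended on single libraries. The raised count was 4 without IL_24h replicate 1, 8 without IL_24h replicate 2, 11 without IL_TNF_24h replicate 2 and 7 without IL_TNF_24h replicate 3. It was 55 when only these 2 groups entered the fit. Over all genes the raised shares in these fits were 4.03%, 4.07%, 5.19%, 4.94% and 9.30%, in the same order. Without IL_24h replicate 1 the share of nuclear members raised was thus near that of all genes. In the other fits listed it was above that of all genes. The calls of Cox5a, Uqcrfs1, Uqcrc2 and Atp5g3 held in each of the 6 fits with 1 library left out. That of the assembly factor Ndufaf4 (0.59) was lost without any 1 of the IL_24h replicates or without IL_TNF_24h replicate 3 (0.51 to 0.64 over the 6 fits). Those of Atp5l (0.56, adjusted p = 0.0521), Cox7b (0.50, adjusted p = 0.0643) and Uqcrb (0.45, adjusted p = 0.0672) were lost without IL_24h replicate 1, and that of Atp5b without IL_24h replicate 1 (0.40), IL_24h replicate 2 (0.42) or IL_TNF_24h replicate 3 (0.39).

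Between interleukin-treated and untreated cells almost every nuclear subunit differed, in a comparison that crosses library sets. At 6 h, 77 of 85 were lower and 3 higher (median −1.04), and at 24 h 76 were lower and 3 higher (median −0.92). Over all genes, 31.6% were lowered and 32.8% raised at 6 h, and 32.6% and 31.7% at 24 h. The nuclear members' share of the counts was 1.16% to 1.47% in Ctrl_0h, 0.597% to 0.754% in IL_6h and 0.748% to 0.847% in IL_24h. Among members of at least 10 CPM, Ndufa2, a complex I subunit, was furthest down at 6 h, from 227, 330 and 209 CPM to 63.1, 37.7 and 51.1 CPM in IL_6h (−2.33). Of the ATP synthase, 15 of 17 were lower at 6 h, led by Atp5e (−2.08) and Atp5d (−1.91), which form part of the central stalk. In complex IV the main isoforms Cox4i1 (−1.57) and Cox6a1 (−1.59) were lower with Cox7a1 (−2.16).

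The 3 nuclear members that were higher at 6 h were Ndufs1, Ndufaf4 and Uqcrc2. Ndufs1, the largest core subunit of complex I, stood at 43.3, 32.6 and 39.8 CPM in Ctrl_0h, at 64.9, 66.01 and 59.6 CPM in IL_6h and at 59.8, 59.3 and 57.5 CPM in IL_24h (0.72 and 0.61). Ndufaf4 stood at 9.81, 14.99 and 13.01 CPM in IL_6h (0.69, and 0.44 in IL_24h, a call lost without Ctrl_0h replicate 3 at 0.35 or IL_24h replicate 1 at 0.45), and Uqcrc2 at 75.2, 78.0 and 77.5 CPM (0.37). Mitochondrial members went both ways at 6 h, with 3 higher and 4 lower of 13. mt-Nd5 rose from 271, 192 and 248 CPM to 574, 1019 and 655 CPM (1.66), mt-Nd4l from 14.1, 4.50 and 16.2 CPM to 66.4, 172 and 104 CPM (3.29) and mt-Co1 by 0.67, while mt-Co2 (−0.999) and mt-Nd3 (−1.39) were lower. At 24 h 6 were higher and 2 lower. The count of 4 lower at 6 h was 2 without Ctrl_0h replicate 1 or 3, or without IL_6h replicate 1 or 3.

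Exon length moved with this comparison. Among other genes the median log2 fold change at 6 h was −0.75 under 1000 bases of exon, −0.65 and −0.16 in the next longer bins and 0.41 from 4000 bases. Nuclear members of the same bins had medians of −1.14, −1.09, −0.84 and −0.76, below the other genes in each. With the trend over length removed, an alternative added after the data were seen, 40 nuclear members were lower and 19 higher at 6 h. At 24 h these counts were 31 and 20. Over all genes in that fit, 31.7% were lower and 31.7% higher at 6 h, and 33.6% and 28.8% at 24 h. The share of nuclear members that were lower was above that of all genes at 6 h and near it at 24 h. The share that were higher was below that of all genes at both times. Mitochondrial members changed from 4 lower to 0 at 6 h and from 2 to 0 at 24 h, with 10 higher at each time. Cox5a, Cox8a, mt-Co2, mt-Nd3 and others then changed sign. The nuclear median was then −0.19 at 6 h and −0.05 at 24 h. Proteins of the cytosolic ribosome, most of them short genes too, were lower in 80 of 84 at 6 h. The parts of treatment, library set and length in the lower nuclear levels cannot be told apart.

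**Figure D5:**
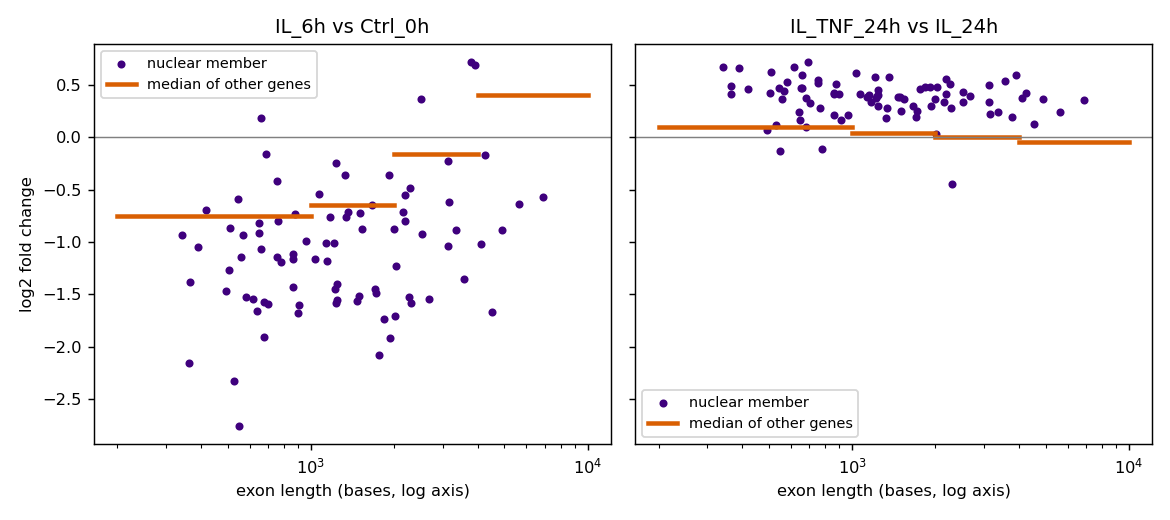
Log2 fold change of nuclear members against exon length (log axis, bases) for IL_6h against Ctrl_0h and for IL_TNF_24h against IL_24h, with the medians of the other genes in 4 length bins. In the first comparison the medians of other genes run from −0.75 in the shortest bin to 0.41 in the longest, and in the second from 0.10 to −0.04. Members are drawn singly. Their bin medians in the second comparison, which are not drawn, are 0.36 to 0.43.

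For TNF added to the interleukins at 24 h, within 1 set, length moved little: the bin medians of other genes were 0.10, 0.05, 0.01 and −0.04, and those of nuclear members 0.43, 0.39, 0.37 and 0.36. With the trend over length removed, 34 nuclear members were raised and 1 lowered, against 7.79% and 6.45% of all genes in that fit.

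The effect of TNF with the interleukins minus its effect without them was tested as an interaction, which subtracts differences that each lie within a set. The effect without them is measured against 0 h, so the interaction too carries the time in culture. At 6 h, 8 of 13 mitochondrial members and 3 of 85 nuclear members had a positive interaction and 0 a negative one, against 9.27% positive and 9.13% negative over all genes (11.5% and 7.14% with library totals, where 8 nuclear members were positive). The nuclear ones were Cox7a1 (2.31 ± 0.37, adjusted p = 0.000207), Ndufv3 (0.78) and Ndufa4 (0.66), each of which fell under TNF alone. Each was also lower in IL_6h than in Ctrl_0h (−2.16, −1.71 and −1.47), a comparison that crosses sets. The part of these lower levels in the interaction was not tested. The call of Ndufa4 was lost in 7 of the 12 fits with 1 library left out (0.54 to 0.79 over the 12), namely without replicate 2 of Ctrl_0h and without replicate 2 or 3 of TNF_6h, of IL_6h or of IL_TNF_6h. Among the mitochondrial ones mt-Nd3 gave 1.98 ± 0.40 (adjusted p = 0.00187), mt-Cytb 1.54 ± 0.28 (adjusted p = 0.000573) and mt-Co2 1.32 ± 0.19 (adjusted p = 8.54e-05). The mitochondrial count was 5 without IL_TNF_6h replicate 3, and the nuclear count 1 without Ctrl_0h replicate 2 or without TNF_6h replicate 2. Without both libraries that hold fibroblast markers, an alternative added after the data were seen, 8 mitochondrial and 1 nuclear member had a positive interaction and 2 nuclear members a negative one. Negative nuclear interactions numbered 1 without IL_6h replicate 1, 2 without IL_6h replicate 2 and 1 without IL_TNF_6h replicate 3. With the trend over length removed, 4 mitochondrial interactions were positive and 7 nuclear ones negative, against 11.8% positive and 11.5% negative over all genes.

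At 24 h the interaction was positive for 42 of 85 nuclear members and negative for 0, against 11.6% and 12.5% over all genes (15.3% and 10.1% with library totals, 16.4% and 10.0% with upper-quartile scaling), and all 85 estimates were above 0 (median 0.66 against 0.08 over all genes). Other genes followed length here too, with medians of 0.34 under 1000 bases, 0.28 and 0.07 in the next longer bins and −0.07 from 4000 bases, against 0.72, 0.71, 0.51 and 0.55 for nuclear members. With the trend over length removed, 78 of 85 estimates were above 0 with a median of 0.39. The 13 mitochondrial members gave 0 calls and a median of −0.30, which was −0.66 with that trend removed and −0.12 without Ctrl_0h replicate 2. By class, 16 of 38 in complex I, 2 of 8 assembly factors, 5 of 8 in complex III, 7 of 14 in complex IV and 12 of 17 in the ATP synthase were positive. Atp5k, a small subunit of the membrane part whose promoter is shown above, stood at 118, 137 and 88.3 CPM in Ctrl_0h and 109, 86.9 and 49.99 CPM in TNF_24h, but at 42.4, 46.4 and 57.4 CPM in IL_24h and 91.5, 72.8 and 68.3 CPM in IL_TNF_24h (1.15 ± 0.39, adjusted p = 0.0367), a call lost in 8 of the 12 fits with 1 library left out. Atp5j2 (1.05 ± 0.25, adjusted p = 0.00435) and Ndufb10 (1.00 ± 0.24, adjusted p = 0.0049) held in each of the 12. The count of 42 was 25 without Ctrl_0h replicate 2, 20 without IL_24h replicate 1, 14 without IL_24h replicate 2, 24 without IL_TNF_24h replicate 1, 25 without IL_TNF_24h replicate 3 and 20 without TNF_24h replicate 3. With 27 positive when only the 4 groups entered the fit, the direction was the same and the number smaller.

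Partners of the chain outside the name prefixes were followed as lists. Of 6 genes of complex II and the cytochromes c, 3 rose and 0 fell at 6 h of TNF (Sdhb, Sdhd and Cycs; 18.8% and 20.5% over all genes), 1 rose at 24 h (Cycs; 20.9% over all genes), and 5 rose and 0 fell when TNF was added to the interleukins for 24 h (6.03% and 5.08% over all genes), with a median of 0.49. Cycs, the soluble electron carrier cytochrome c, stood at 116, 123 and 106 CPM in Ctrl_0h, 189, 193 and 182 CPM in TNF_6h and 246, 242 and 188 CPM in TNF_24h (0.71 and 0.97), and at 93.1, 98.3 and 105 CPM in IL_24h against 158, 134 and 148 CPM in IL_TNF_24h (0.57 ± 0.12, adjusted p = 0.00271). Of 14 genes of the tricarboxylic acid cycle, 5 rose and 1 fell in that last comparison, against the same 6.03% and 5.08% over all genes, with a median of 0.29.

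The machinery of assembly and mitochondrial gene expression was followed in the same way. When TNF was added to the interleukins for 24 h (6.03% of all genes raised, 5.08% lowered), 2 of 76 proteins of the mitochondrial ribosome rose and 0 fell (median 0.18), 1 of 19 complex IV assembly factors rose, 0 of 9 factors for complexes III and V changed, 1 of 8 complex I assembly factors outside the Ndufaf names rose, and 0 of 84 proteins of the cytosolic ribosome changed (median 0.07). Of 16 genes for the replication and transcription of mitochondrial DNA, 2 rose and 1 fell at 6 h of TNF, the time when 10 of 13 mitochondrial messages were lower, and the mitochondrial ribosome then had 7 of 76 raised and 12 lowered, all of these shares below the 18.8% and 20.5% of all genes. Of 9 nuclear regulators of respiratory genes, 4 rose and 2 fell at 6 h of TNF (18.8% and 20.5% over all genes), and 1 rose and 2 fell when TNF was added to the interleukins for 24 h (6.03% and 5.08%). With so few genes, these counts are descriptions.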

How the data were processed

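Total RNA was extracted with Trizol, per the labels' protocols. The authors deposited raw read counts per gene as whole numbers that sum to different library totals. The submitters' processing notes name GRCm38, edgeR 3.28.1, TopHat2 2.0.12 and Subread 1.6.3 with its featureCounts; no source used here gives the annotation or the strand setting. More values were 2 (30373) than 1 (17808), as when both mates of a pair are counted, so counting precision is lower than the totals imply.

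A table of gene names gave symbols for 32832 of 47069 rows. RefSeq gene tables (GRCm38.p6) gave positions and the current symbol in place of 2668 older ones. Exon lengths, as the union of all exons of a gene, came from the older GENCODE vM1 annotation. With R 4.3.3 and edgeR 4.0.16, the 15581 genes that passed filterByExpr were scaled by TMM and fitted by a quasi-likelihood model with 1 term per group over all 21 libraries. Of 9 contrasts, 7 compared 2 groups and 2 were interactions. Adjusted p values (Benjamini-Hochberg, all 15581 genes) were read against 0.05, and each SE is the log2 fold change divided by the root of F. The common biological coefficient of variation was 22.8%. The script was tested on simulated data. The spread behind each p value is that between libraries of a group, which may be technical only. No 2 libraries held identical values, and no columns of other samples were used.

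The members, gene lists and tests were chosen with earlier results of these data known. Named were, per class and direction, the 3 called members that changed most, provided that their libraries did not overlap and 1 group mean reached 10 CPM, the 5 largest interactions in each direction, the catalytic subunits, isoform pairs, the inhibitor and all mitochondrial members. Alternatives were DESeq2 1.42.0 size factors or Wald test, upper-quartile scaling, library totals, all genes with a count, only genes with 1 CPM in 3 libraries (strict filter), mitochondrial counts left out, compared groups only, a replicate block, leaving out libraries singly, 3 libraries left out together (Ctrl_0h replicate 2, IL_TNF_24h replicate 1 and TNF_6h replicate 3), and, both added after seeing the data, removal of the trend of log2 counts over exon length and the omission of IL_6h replicate 2 with IL_TNF_6h replicate 3.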

Additional observations from a re-analysis of the deposited data

Results flagged for a closer look

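These results are listed because the effect of TNF differed with and without interleukins 4 and 13 by the interaction test of edgeR, and they are the 5 with the largest interactions at each time among members with at least 10 CPM in 1 of the 4 groups. At 6 h the log2 interaction was 2.31 for Cox7a1, 1.98 for mt-Nd3, 1.54 for mt-Cytb, 1.33 for mt-Atp6 and 1.33 for mt-Nd1. Cox7a1 was lower in IL_6h than in Ctrl_0h too (−2.16). The calls of Cox7a1, mt-Nd3, mt-Cytb and mt-Nd1 held in each of the 12 fits with 1 library left out, and that of mt-Atp6 was lost without IL_TNF_6h replicate 3 (0.87, adjusted p = 0.0604).

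At 24 h the log2 interaction was 1.15 for Atp5k, 1.05 for Atp5j2, 1.05 for Cox7a1, 1.00 for Ndufb10 and 0.99 for Uqcr10. The calls of Atp5j2 and Ndufb10 held in each of the 12 fits. That of Uqcr10 was lost without IL_24h replicate 2 (0.85, adjusted p = 0.0597), that of Atp5k in 8 fits (0.89 to 1.40 over the 12) and that of Cox7a1 in 9 (0.89 to 1.21). The groups with interleukins come from other library sets than those without, and the part of this in the interactions was not tested.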

How the results depend on the processing

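Of the values of named genes under the alternatives, 5386 were counted as the same, and 326 lost and 130 gained a call. Another 27 were counted as changed in sign, all with the trend over length removed. That count leaves out some changes of sign without a call. An example is the mitochondrial members for TNF added to IL at 6 h without IL_TNF_6h replicate 3. The lowered mitochondrial members at 6 h of TNF numbered 10, and 8 to 9 with 1 library left out. Numbers below are of members raised or lowered, nuclear unless said otherwise, and the cause of a change was not tested.

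For TNF at 6 h against Ctrl_0h, 7 raised members became 1 with library totals and 14 with the length trend removed (4 to 6 with 1 library left out), and 12 lowered became 19 with upper-quartile scaling, 37 with library totals and 4 with 3 libraries left out (5 to 15). For TNF at 24 h, 1 raised became 0 with upper-quartile scaling, library totals, no filter, the strict filter, compared groups only and 3 libraries left out, 2 with the DESeq2 Wald test and 5 with length removed (0 to 3), and 21 lowered became 44 with upper-quartile scaling, 56 with library totals, 32 with the strict filter, 5 with compared groups only, 6 with 3 libraries left out and 13 with length removed (4 to 41). The 4 mitochondrial members raised became 1 with upper-quartile scaling or library totals, 2 with compared groups only and 0 with 3 libraries left out (0 to 4). From 6 h to 24 h of TNF, 1 raised became 2 with DESeq2 size factors, library totals, the Wald test, the strict filter or length removed, and 5 lowered became 11 with length removed (3 to 13).

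For TNF added to IL at 6 h, 0 raised became 1 with length removed, 1 lowered became 0 with no filter and compared groups only (0 to 1), and 0 mitochondrial members raised became 1 with no filter. At 24 h, 19 raised became 55 with compared groups only and 34 with length removed (4 to 15), and 0 lowered became 1 with length removed (0 to 1). For IL against Ctrl_0h at 6 h, length removal changed 3 raised to 19, 77 lowered to 40, 3 mitochondrial raised to 10 and 4 lowered to 0; the last was 2 with library totals or compared groups only (2 to 4). At 24 h it changed 3 raised to 20, 76 lowered to 31, 6 mitochondrial raised to 10 and 2 lowered to 0; the 3 raised became 5 with library totals or compared groups only, and the 2 mitochondrial lowered 4 with compared groups only. For the interaction at 6 h, 3 raised became 8 with library totals, 7 with the Wald test, 5 with the strict filter and 1 without the 2 libraries with fibroblast markers (1 to 4), 0 lowered became 2 with the Wald test or without those 2 libraries, 1 with 3 libraries left out and 7 with length removed (0 to 2), and 8 mitochondrial raised became 4 with length removed (5 to 11). At 24 h, 42 raised became 27 with compared groups only and 21 with 3 libraries left out (14 to 57), and 0 mitochondrial lowered became 4 with no filter (0 to 1).

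With the length trend removed, Cox4i1 changed sign in TNF_24h (0.16). In IL_6h the values became 1.15 for Cox5a, 0.20 for Cox6b1, 0.066 for Cox7a2, 0.79 for Cox8a, 0.019 for Ndufa4, 0.10 for Uqcrfs1, 0.78 for mt-Atp6, 0.33 for mt-Co2, 1.02 for mt-Co3, 0.89 for mt-Nd1, 0.37 for mt-Nd3 and 0.67 for mt-Nd6. In IL_24h they became 0.052 for Cox4i1, 0.96 for Cox5a, 0.0497 for Cox6a1, 0.33 for Cox6b1, 0.063 for Cox7a2, 1.30 for Cox8a, 0.13 for Ndufa4, 0.34 for Uqcr10, 0.10 for Uqcr11, 0.12 for Uqcrc1, 0.48 for Uqcrfs1, 0.89 for mt-Atp6, 0.64 for mt-Co2 and 0.68 for mt-Nd3.

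Replicate numbers share only a number: same-numbered libraries had correlations of −0.31 to 0.36 (median 0.0066), and 7 of 21 correlated best with their own number. With the replicate number as a block, 34 of 36 counts stayed within 1.5 times, 1 lowered member for TNF added to IL at 6 h became 0, and 3 raised in the interaction at 6 h became 5.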
